A study of Mus musculus with 2 samples.

Results

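The genes described here are the small nucleolar RNAs (snoRNAs) and small Cajal body RNAs (scaRNAs) that could be counted in total RNA of mouse calf muscle. They were chosen from the measured values: a gene was a member when its transcript class was snoRNA or scaRNA and its expected count, an estimated number of reads, averaged 10 or more over both libraries. Of 1558 annotated genes of these classes, 47 passed (3.02%), 40 of 1507 in the snoRNA class and 7 of 51 in the scaRNA class. Because counts chose the members, their levels are given as a description with no test.

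Total RNA of the gastrocnemius, the large calf muscle, was sequenced from 2 adult male B6CASTF1/J mice, F1 offspring of a cross between C57BL/6J and CAST/EiJ, at an age of 8 to 10 months. Each animal gave 1 library (replicates 1 and 2), made from 300 ng of RNA with a directional kit after ribosomal RNA was reduced and ERCC spike-in RNAs were added. The labels give the animals different numbers and 1 shared donor identifier, and name 1 group with no treatment. Levels could therefore be described and the 2 libraries compared with each other, but no condition could be tested.

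Small nucleolar RNAs are short nuclear RNAs that pair with other RNAs and, bound to a fixed set of proteins, direct their chemical modification. Box C/D RNAs carry a C box near the 5′ end and a D box near the 3′ end and guide 2′-O-methylation, while box H/ACA RNAs end in an ACA box and guide pseudouridylation. Most work on ribosomal RNA in the nucleolus, a few such as U3, U8 and U17 are needed for cleavage of the ribosomal RNA precursor, and the Cajal body RNAs guide modification of spliceosomal RNAs. In mammals most are cut from introns of host genes.

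Annotated genes held 36792619 expected counts in replicate 1 and 37752252 in replicate 2. The labelled tissue was checked with 5 genes of skeletal muscle fibres (Ckm, Acta1, Myh4, Tnnt3 and Atp2a1), whose summed level was 70838 to 75365 TPM (a length-scaled relative abundance). The 9 markers of vessels, fibroblasts, fat, blood, Schwann cells and neurons summed to 116 to 126 TPM. In bulk tissue, fewer cells of a type and less RNA per cell cannot be told apart.

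The sequences below are the transcripts of GENCODE M21 on mm10, written as DNA from 5′ to 3′, and are shown because the levels of these families and neighbours are compared further on. Capitals mark the box letters found: a C box (ATGATGA or GTGATGA) that lay within the first 20 bases, a D box (CTGA) within the last 12, or ACA starting 4 to 8 bases from the 3′ end. The U3 variants are Rnu3b1 (chr11:87443237-87443452, plus strand) and Rnu3a (chr10:40258467-40258679, plus strand), which were 85.2% identical.
Rnu3b1: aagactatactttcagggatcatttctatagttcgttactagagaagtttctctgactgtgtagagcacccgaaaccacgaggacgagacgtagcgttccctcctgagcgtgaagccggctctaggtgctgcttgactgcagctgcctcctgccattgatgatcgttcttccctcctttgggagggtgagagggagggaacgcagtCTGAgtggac
Rnu3a: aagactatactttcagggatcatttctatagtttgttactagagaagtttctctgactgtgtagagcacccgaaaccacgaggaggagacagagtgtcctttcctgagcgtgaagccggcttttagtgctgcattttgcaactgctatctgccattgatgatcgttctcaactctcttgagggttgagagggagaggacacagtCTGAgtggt

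The U17 family had 3 counted members: Snora73b (chr4:132352322-132352526, minus strand), Snora73a (chr4:132352775-132352979, minus strand) and Gm26448 (chr9:120129351-120129553, plus strand). Snora73b and Snora73a have start coordinates 453 bases apart in Snhg3 and were 96.6% identical, and Gm26448, which lies in Rpsa and has no family name in the annotation, was 87.8% identical to each.
Snora73b: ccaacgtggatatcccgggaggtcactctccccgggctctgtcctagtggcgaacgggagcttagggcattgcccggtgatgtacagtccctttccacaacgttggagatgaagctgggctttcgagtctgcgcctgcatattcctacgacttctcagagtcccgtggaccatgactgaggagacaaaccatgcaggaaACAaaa
Snora73a: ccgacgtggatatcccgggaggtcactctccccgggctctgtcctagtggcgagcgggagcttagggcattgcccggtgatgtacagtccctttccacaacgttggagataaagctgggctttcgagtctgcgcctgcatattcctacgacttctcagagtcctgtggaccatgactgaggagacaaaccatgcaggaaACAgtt
Gm26448: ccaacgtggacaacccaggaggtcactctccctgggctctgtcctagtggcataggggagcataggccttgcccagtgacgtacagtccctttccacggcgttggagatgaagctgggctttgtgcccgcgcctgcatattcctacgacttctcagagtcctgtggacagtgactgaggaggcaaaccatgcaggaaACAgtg

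Both Cajal body RNAs within introns of Atg16l1, Gm25395 (chr1:87776938-87777209, plus strand) and Scarna6 (chr1:87784556-87784820, plus strand), held a C box and a D box. They were 60.6% identical, and Scarna6 was the family-named gene closest to Gm25395.
Gm25395: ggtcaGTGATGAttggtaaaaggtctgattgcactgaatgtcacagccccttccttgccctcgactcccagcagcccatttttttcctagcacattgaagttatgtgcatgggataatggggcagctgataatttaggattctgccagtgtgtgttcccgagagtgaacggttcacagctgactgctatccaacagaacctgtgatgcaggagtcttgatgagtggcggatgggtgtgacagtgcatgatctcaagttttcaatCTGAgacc
Scarna6: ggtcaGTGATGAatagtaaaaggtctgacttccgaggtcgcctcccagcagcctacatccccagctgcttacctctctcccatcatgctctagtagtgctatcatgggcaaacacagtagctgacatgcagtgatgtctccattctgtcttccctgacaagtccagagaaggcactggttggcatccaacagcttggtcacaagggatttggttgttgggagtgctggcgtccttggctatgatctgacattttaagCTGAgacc

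Pabpc4 introns held a near-identical H/ACA pair, Gm25788 (chr4:123291344-123291474, plus strand) and Gm22154 (chr4:123293152-123293282, plus strand), with 96.9% identity. In Eif4a1 the neighbours were unlike: Gm22988 (chr11:69669635-69669778, minus strand) ended in ACA, Gm25835 (chr11:69668852-69668995, minus strand) held both the C and the D box, and their identity was 48.1%.
Gm25788: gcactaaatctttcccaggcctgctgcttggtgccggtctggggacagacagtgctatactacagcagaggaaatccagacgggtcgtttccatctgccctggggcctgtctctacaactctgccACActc
Gm22154: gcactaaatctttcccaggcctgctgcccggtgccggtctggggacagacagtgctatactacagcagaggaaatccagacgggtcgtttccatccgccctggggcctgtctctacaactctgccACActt
Gm22988: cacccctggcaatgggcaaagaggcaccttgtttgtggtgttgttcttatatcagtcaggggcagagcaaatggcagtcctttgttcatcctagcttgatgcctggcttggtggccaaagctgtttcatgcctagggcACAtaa
Gm25835: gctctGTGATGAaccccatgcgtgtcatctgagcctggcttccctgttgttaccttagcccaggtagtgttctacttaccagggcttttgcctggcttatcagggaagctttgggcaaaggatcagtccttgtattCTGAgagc

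Only RNAs above a length limit could be counted at all. The deposited tables set the effective length, the number of positions where a read could start, at the transcript length minus 100 bases. It was 0 for the 463 annotated genes of 100 bases or fewer, and none of those had a count in either library. Of the 98 genes named Snord, the box C/D family with a median length of 84 bases, 87 (88.8%) had an effective length of 0, against 0 of 42 genes named Snora, the box H/ACA family with a median of 132.5 bases.

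Above that limit the share of annotated genes that became members rose with length. None of 236 genes of 101 to 125 bases was a member, while 24 of 794 were at 126 to 149 bases (3.02%), 6 of 26 at 150 to 199 bases (23.1%) and 17 of 39 at 200 to 414 bases (43.6%). Members had a median length of 148 bases (range 126 to 414), against 128 bases over all annotated genes. A further 982 genes with an effective length above 0 had a count of 0 in both libraries, which allows up to 3 counts in each.

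**Figure D1:**
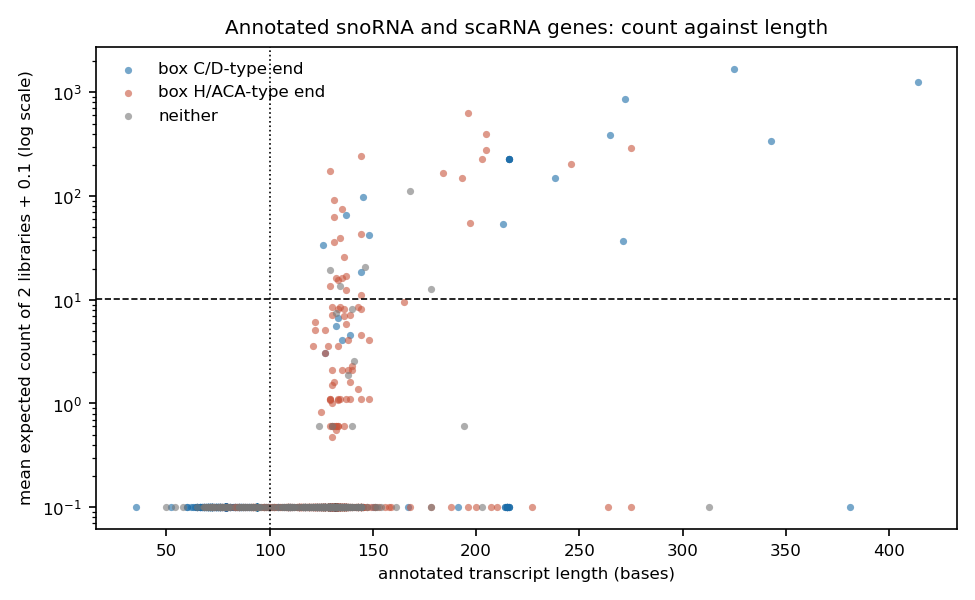
Mean expected count of the 2 libraries, plus 0.1 and on a log scale, against annotated length for 1558 snoRNA and scaRNA genes, coloured by the box letters at the 3′ end. The dotted line is the length of 100 bases at or below which all 463 genes had no count, and the dashed line is the minimum mean count of 10 that 47 genes reached.

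Several well-known families were thus outside the measurement. All 4 genes of U14, an essential processing RNA, the 4 listed C/D RNAs of the Rpl13a cluster and the 4 of the Gas5 cluster had lengths of 66 to 90 bases and an effective length of 0. All 19 listed genes of the imprinted clusters, most of them Snord116 copies of 94 bases, had an effective length of 0 as well. U13 (Snord13), 104 bases long with an effective length of 4, had no count. U8 (Snord118), needed for maturation of the large ribosomal subunit, is 135 bases long and had 2 counts in replicate 1 and 6 in replicate 2, below the minimum.

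At the minimum itself, the members just inside were Gm24727 with a mean count of 11.0, Gm25791 with 12.3 and Snora81 with 12.6. Just outside were Gm22767 with 9.5 and Gm23442, Snora31 and Gm25776 with 8.5 each. Another 62 annotated genes with any count lay further below.

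The members held little of the library by count and more by TPM. Together they had 8243 expected counts in replicate 1 and 10559 in replicate 2, 0.0252% ± 0.00394 of all gene counts (SD, n = 2; SDs after ± are over 2 animals throughout). Their summed TPM was 3049.7 and 3458.1, which was 0.327% ± 0.0291 of gene TPM. TPM divides by effective length, so a member of 129 bases is divided by 29, and its TPM stands far above what its count per full length gives.

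A few members held most of the reads. The same 10 members were the most abundant by count in both animals and held 67.7% ± 0.312 of member counts, and the first 3 (Scarna10, Scarna2 and Gm25395) held 40.4% ± 0.381. By TPM the levels ran from 6.01 to 277, with a median of 52.2 ± 3.87, and the 10 members highest by TPM in each library held 53.1% ± 1.45 of member TPM. Counts behind the members were uneven: 21 had a mean of 100 or more, 36 of 20 or more. Over the 47 members the rank correlation of TPM between the animals was 0.947, a description across genes that share a library and range of depth.

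**Figure D2:**
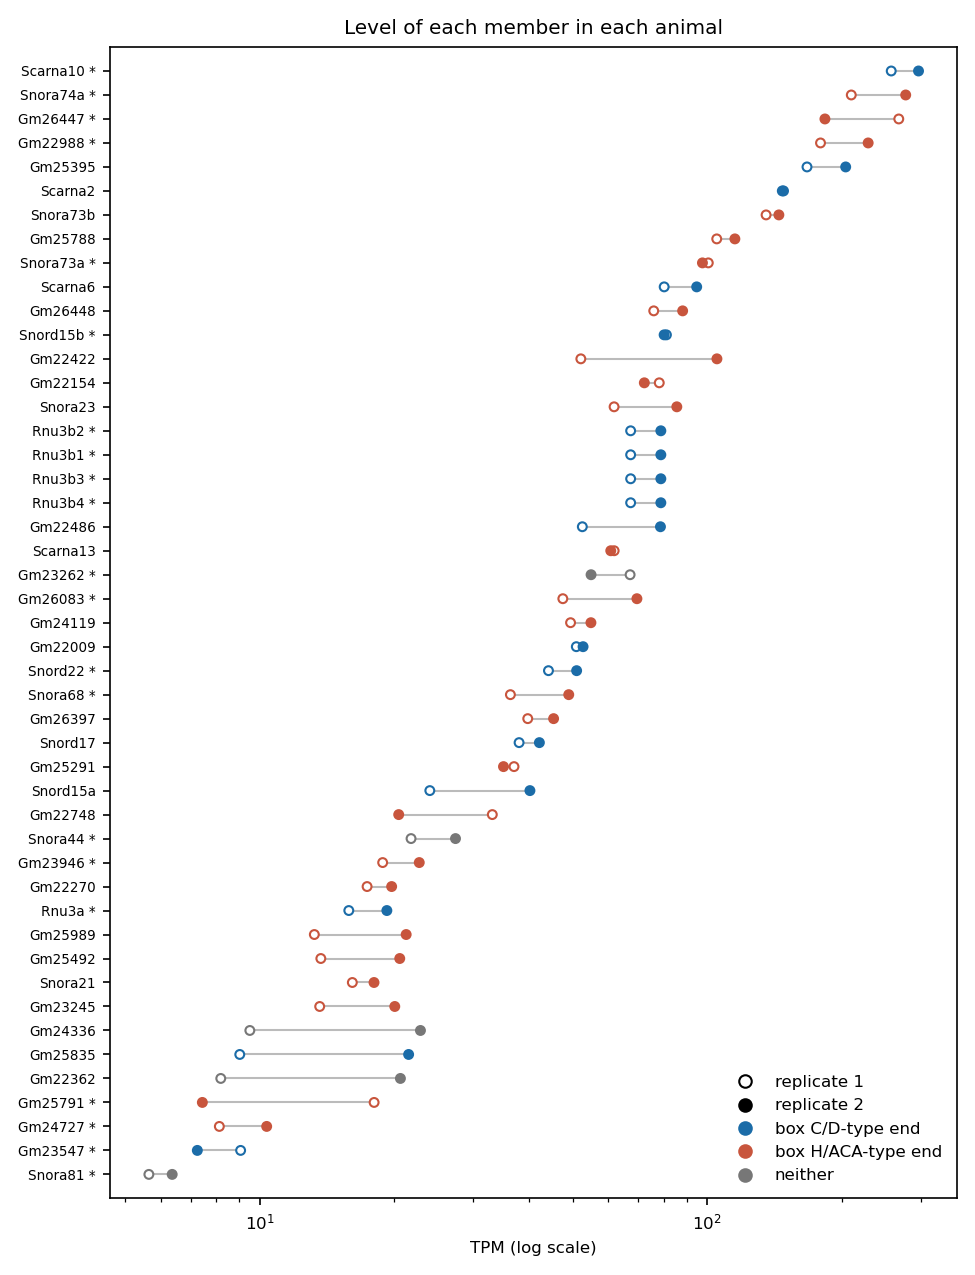
TPM of the 47 members on a log scale, with an open circle for replicate 1, a filled circle for replicate 2 and a line joining them, ordered by mean TPM and coloured by the box letters at the 3′ end. An asterisk marks the 21 members with some sequence that also occurs in another gene; means run from 6.01 TPM (Snora81) to 277 TPM (Scarna10).

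The Cajal body RNAs were the largest group by reads. The 8 of them (7 of the scaRNA class plus Scarna10, which the annotation classes as a snoRNA) held 52.9% ± 0.472 of member counts and 27.3% ± 0.209 of member TPM, with a median of 76.6 ± 7.88 TPM. Scarna10 (U85; ENSMUSG00000089617.1), which guides both kinds of modification on the U5 spliceosomal RNA, had 257.85 TPM in replicate 1 and 296.74 in replicate 2. Only 18.7% of its windows of read length are unique, the rest occurring also in its host Ncapd2 or in Gm28967, so its level and each ratio given for it are uncertain by the reads these genes share. Scarna2, a guide for U2 and 1 of 2 members outside any host gene on the same strand, had 147.2 and 148.12 TPM, nearly equal in both animals.

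The Atg16l1 pair differed in TPM in the same way in each animal, but not in the second deposited quantification. Gm25395 had 167.15 and 203.97 TPM, and Scarna6 had 80.14 and 94.74 TPM. Gm25395 was thus 2.12 ± 0.0475 times Scarna6, with no overlap between the 4 values. The second quantification gave the opposite order, with 26 and 73 estimated counts for Gm25395 and 67 and 101 for Scarna6, so the order depends on the quantification. Scarna13 (U93), an H/ACA Cajal body RNA, had 61.95 and 60.88 TPM. Gm22009, a longer one in Kpna4, had 50.99 and 52.79 TPM, Gm26083 in Snhg20 had 47.57 and 69.65, and Gm25492 in Bud23 had 13.69 and 20.55. Gm25492 rested on 10 and 17 counts, and Gm26083 lies inside an exon of Snhg20 with no unique window.

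U3, the C/D RNA that pairs with the ribosomal RNA precursor and is required for its early cleavages, was counted mainly as U3b. The 4 genes Rnu3b1 to Rnu3b4 lie on chromosome 11 within Tex14, are identical in sequence, and each received 197 counts in replicate 1 and 260.75 in replicate 2. Their reads cannot be told apart, so only the sum has meaning. Their windows also occur under further gene identifiers of the same names, so even the sum is uncertain as a level of U3b. The sum was 788 and 1043 counts, or 269.8 and 315.1 TPM. That sum, 292 ± 32.1 TPM, stood above Scarna10 (277 ± 27.5 TPM) within each library, though the ranges over the animals overlapped. Tex14 itself averaged 0.01 TPM.

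U3a was much lower. Rnu3a, on chromosome 10 and outside any host gene, had 15.81 and 19.23 TPM from 45 and 62 counts. Summed U3b was 16.7 ± 0.478 times Rnu3a, and the ratio was 17.1 and 16.4 in the 2 animals. Every window of Rnu3a also occurs under another gene identifier of that name, so its level is uncertain, as is its ratio to U3b.

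The U17 family, H/ACA RNAs needed for processing of the small-subunit ribosomal RNA, kept 1 order in both animals. Snora73b had 135.41 and 144.62 TPM, Snora73a had 100.57 and 97.59, and Gm26448 had 75.95 and 88.13. Snora73b was 1.41 ± 0.0958 times its Snhg3 neighbour Snora73a, and the 3 genes' values did not overlap. All windows of read length were unique, by exact match, to Snora73b and Gm26448, but only 43.8% of such windows were unique to Snora73a, the rest being shared with Snhg3 exons.

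Among the 6 other genes with a Snora name, the median was 33.6 ± 6.48 TPM. Snora74a (U19; on chromosome 18) stood highest with 209.94 and 277.8 TPM. None of its windows was unique, since it lies inside an exon of the noncoding gene AC121821.1. Snora23, in an intron of Ipo7 and unique throughout, had 61.93 and 85.53 TPM. Snora68 (36.32 and 49.04), Snora44 (21.78 and 27.38), Snora21 (16.1 and 18) and Snora81 (5.65 and 6.37) followed, and each of these rested on fewer than 50 counts per library.

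Only 4 genes with a Snord name were long enough and abundant enough to be members, with a median of 43.8 ± 3.91 TPM. Both U15 genes, guides for the large-subunit ribosomal RNA, lie in Rps3: Snord15b had 81.07 and 80.12 TPM, and Snord15a had 23.99 and 40.16. Snord22 (U22), which acts in small-subunit processing and lies in the noncoding gene Snhg1, had 44.18 and 51.07 TPM. Snord17, an unusually long C/D RNA in Snx5, had 37.98 and 42.16 TPM.

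The 22 other members have no family name, only a Gm number, and ranged from 8.16 to 226 TPM with a median of 32.0 ± 4.31. The highest were Gm26447 in Eif4a2, with 268.07 and 183.31 TPM, and Gm22988 in Eif4a1, with 179.19 and 228.98. Both lie inside an annotated exon of their host and have no unique window, and their effective lengths were 29 and 44 bases. Per kilobase of full length they had 1347 and 1688 counts, against 5178 for Scarna10.

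Sequence placed few of the unnamed genes in a family. Including Cajal body genes, 26 members carry a Gm number, and 3 of them were at least 70% identical to a gene with a family name. Gm26448 was close to Snora73b, as given above, and Gm22422 and Gm22362 were nearest to Snora70, with 80.3% and 74.6% identity. Gm22422, in Trmt10c, had 52.19 and 105.14 TPM, and Gm22362, in Ybx3, had 8.18 and 20.62. Gm22988 and Gm25291 (in Sec24a) were 97.2% identical and Gm24727 (in Gsr) was 93.8% identical to both, so the 3 form a group of their own with means of 204, 36.0 and 9.24 TPM.

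The letters at the 3′ end split the members by class. The D box was found in 17 members, of which 9 also held the C box, and ACA in 25, of which 21 had exactly 3 bases after it. The remaining 5 (Gm23262, Gm24336, Snora44, Gm22362 and Snora81) had neither. All 9 members named Snord or Rnu3 had the D box, but 3 of the 9 had the C box spelled as searched. Of 8 members named Snora, 6 had ACA in place.

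The share with a D box differed between members and other annotated genes and also with length. It was found in 36.2% of members, in 8.62% of the 812 annotated genes of 126 to 414 bases below the minimum, most of them at the short end of that range, and in 77.1% of the 463 genes with an effective length of 0. ACA was found in 53.2%, 60.3% and 7.78% of the same 3 sets, and neither in 10.6%, 31.0% and 15.1%. At 126 to 149 bases, 5 of 24 members (20.8%) and 53 of 770 genes below the minimum (6.88%) had the D box. At 150 to 199 bases these were 0 of 6 and 3 of 20, and at 200 to 414 bases 12 of 17 (70.6%) and 14 of 22 (63.6%), where the 4 identical U3b genes are 4 of the 12. Over all 1511 annotated genes below the minimum, 29.5% had the D box and 43.2% ACA. A match describes letters only, and CTGA can occur in an end of this length without being a box.

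The level of the classes depended on the length used. Members with a D box had a median of 73.1 ± 8.02 TPM and those with ACA 51.3 ± 5.23, a log2 ratio of 0.51 ± 0.01. D box members were longer, with a median of 216 bases against 137, and per kilobase of full length the medians were 988 ± 111 and 415 ± 105 counts. Among members with a mean count of 20 or more, the log2 ratio of the TPM medians was 0.06. The 4 identical U3b copies are among the D box members and set 2 of their medians. Each copy had 73.1 TPM, an equal part of shared reads, and 216 bases. The log2 ratio of 0.51 thus counts 1 shared measurement 4 times, and the ratio with the copies counted once was not tested.

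Nearly all members lay within another gene. On the same strand 45 of 47 (95.7%) were inside a host gene, against 651 of the 1511 annotated genes below the minimum (43.1%); the exceptions were Scarna2 and Rnu3a. Protein-coding genes were the smallest host of 37. Of the 45, 29 were wholly intronic, 6 partly exonic and 10 inside an annotated exon, where a read cannot be told from one of the host transcript. The hosts included genes of translation, namely Eif4a1, Eif4a2, Eif4g2, Pabpc4, Rpsa, Rps3, Rpl5 and Rpl23, and the noncoding hosts Snhg1, Snhg3, Snhg10, Snhg12 and Snhg20.

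The level of a member bore little relation to that of its host. Over the 41 pairs without U3, host TPM ran from 0.775 to 954 (median 31.3), the rank correlation of mean TPM was −0.142, and 22 members stood above their host. These points share libraries, and some share a host, so the value is a description. Scarna10 was 85.3 times Ncapd2 (3.02 and 3.48 TPM), Snora74a 150 times its host, and Scarna13 79.2 times Snhg10 (0.775 TPM). At the other end, Gm22362 was 0.0151 times Ybx3, which had 954.08 and 953.52 TPM, and Snora81 was 0.0337 times Eif4a2. Snora74a and Snora81 have no unique window and Scarna10 has 18.7%, so their multiples depend on how shared reads were divided. Division by effective length also raises the TPM of short members, and its part in these multiples was not tested.

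How far members of 1 host differed varied. Apart from the identical U3b copies in Tex14, the mean fold between them ran from 1.41 in Snhg3 to 38.1 in Eif4a2. In Eif4a2, Gm26447 was 47.4 and 28.8 times Snora81 in the 2 animals, and in Eif4a1, Gm22988 was 19.9 and 10.6 times Gm25835. The lower members had few counts, 11.1 and 14.17 for Snora81 and 10 and 27 for Gm25835. Gm26447, Snora81 and Gm22988 have no unique window, and the share of host reads in them was not tested. In Rps3, Snord15b was 3.38 and 2.0 times Snord15a, and Snord15b too has no unique window. In the near-identical Pabpc4 pair, Gm25788 (105.04 and 115.32 TPM) was 1.34 and 1.59 times Gm22154 (78.14 and 72.36 TPM). All windows of both were unique among annotated transcripts by exact match, which does not count near matches between the 2. The noncoding hosts themselves were low, at 7.05 TPM for Snhg3, 4.08 for Snhg1, 3.0 for Snhg20 and 2.56 for Snhg12.

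**Figure D3:**
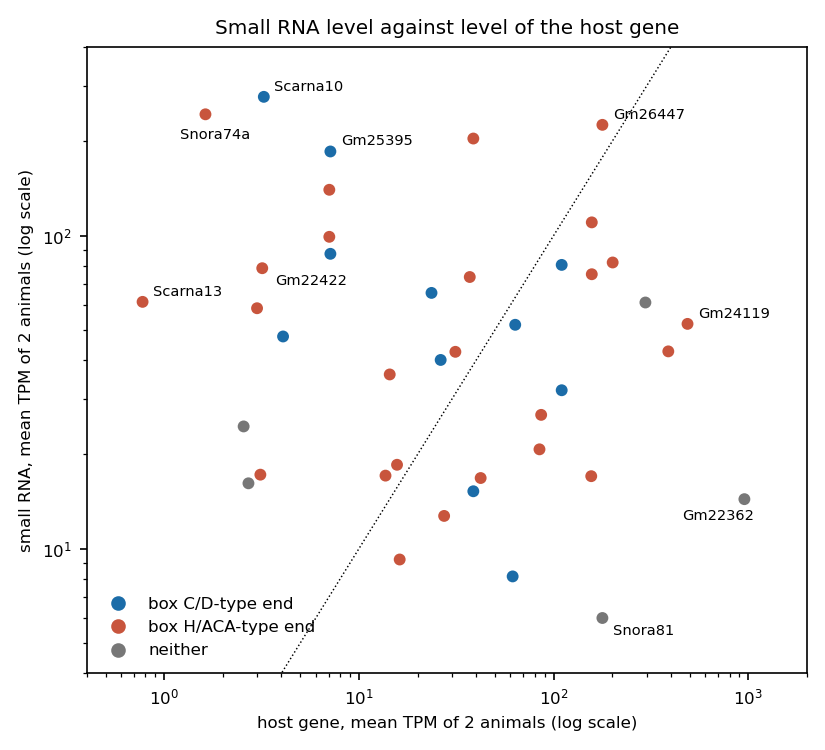
Mean TPM of 2 animals for 41 members against the smallest same-strand gene that holds each, both on log scales, coloured by the box letters at the 3′ end and without the U3 genes. The dotted line marks equal TPM, and 22 members lie above it. Scarna10, Snora74a and Scarna13 stand at 79.2 to 150 times their hosts, and the first 2 of these share sequence with their hosts.

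The libraries were then compared gene by gene, as the ratio of replicate 2 over replicate 1 after scaling by the trimmed mean of M values. An exact two-sided conditional binomial test with Benjamini-Hochberg adjustment over 14095 genes was used, and a gene is described as called when its adjusted p was below 0.05. With 1 library per animal this compares the 2 libraries by counting error alone and has no replicate check. Of 47 members 9 were called (19.1%), against 21.2% of all genes tested. Of these, 8 were higher in replicate 2 and 1 in replicate 1, where 10.6% of genes tested were called in each direction. The share called was near the background.

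The direction was less even. The ratio was above 0 in 39 of 47 members (83.0%), against 51.1% of all genes tested, and the median log2 ratio was 0.25 (1.19-fold; quartiles 0.10 and 0.44), against 0.01 (quartiles −0.15 and 0.17). The 4 identical U3b copies are among the 39, each at 0.25 from the same shared reads, and with identical copies counted once the median was 0.24. Within the 26 members whose every window is unique, 23 were above 0 and the median was 0.23. Scaled by spike-ins the median was 0.11 and by total counts 0.37, while the same scalings put the median of all genes at −0.14 and 0.12.

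Other short structural RNAs had a like median ratio but a larger share called. The 39 tested single-transcript genes of other structural classes within the members' length range had a median of 0.29, with 33 above 0. Of the 39, 18 were called with replicate 2 above replicate 1 and 1 the other way, against 8 and 1 of the 47 members. Among all genes tested, 10.6% were called in each direction. Over all 167 other single-transcript genes of the members' length range, the median was 0.07 and 27.5% were called. In the second deposited quantification, effective length fell short of annotated length by a median of 253 bases in replicate 1 and 248 in replicate 2. That median was taken over long transcripts only, not over those of the members' length. In the main gene table, spike-ins held 0.257% and 0.308% of counts. The part of these in the members' ratio was not tested.

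Of the called members, Gm22422 differed most. It had 46 counts in replicate 1 and 105 in replicate 2, 2.04-fold by scaled counts (log2 ratio 1.03, 95% counting interval 0.53 to 1.57; adjusted p = 0.00039, exact test), while its host Trmt10c had a log2 ratio of −0.06. Snora74a had 507.53 and 760.93 counts, a log2 ratio of 0.43 (0.27 to 0.60; exact adjusted p = 2.7e-06). Gm26083, a Cajal body RNA, had 111.4 and 184.81 counts and a log2 ratio of 0.58 (0.24 to 0.94; exact adjusted p = 0.0057). In each of these 3, replicate 2 was the higher library and the interval excluded 0. Neither Snora74a nor Gm26083 has a unique window, as each lies inside an exon of its host.

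Members of low and high count show how depth set the interval. Scarna10, with 1461 and 1905 counts, was called at a log2 ratio of 0.23 (0.13 to 0.33; exact adjusted p = 5.2e-05). Gm25835, with 10 and 27 counts, had a log2 ratio of 1.21 (0.19 to 2.49) and an exact adjusted p of 0.077. Gm22362, with 7 and 20 counts, had 1.25 (0.06 to 2.85) and an exact adjusted p of 0.13, so neither was called although their ratios exceeded that of every called member.

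The other called members were higher in replicate 2 by smaller ratios, except 1. Gm25395 had a log2 ratio of 0.32 (exact adjusted p = 9.1e-05), Snora23 0.49 (0.015), Gm22988 0.38 (0.027) and Scarna6 0.27 (0.049). Gm26447 alone was called higher in replicate 1, with 195.77 and 151.68 counts and a log2 ratio of −0.51 (−0.83 to −0.20; exact adjusted p = 0.0076), and its host Eif4a2 had −0.06. It has no unique window. By role, 4 of 8 Cajal body RNAs, 2 of 6 Snora genes and 3 of 22 unnamed genes were called, and none of the U3, U17 and Snord genes. The identical U3b copies were tested singly, each with an equal part of their shared reads, so this does not describe U3b as a whole. Among all tested genes with a mean count up to that of the highest member, 16.8% were called. The Cajal body RNAs also held the most counts, and the roles were not tested against each other.

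Members not called had intervals that bound the difference. Scarna2 had a log2 ratio of 0.04 (−0.08 to 0.15) and Snora73b of 0.12 (−0.08 to 0.33). The summed U3b copies had 0.25 (0.12 to 0.39), an interval for counting error with no adjusted p, since single copies and not the sum were in the test. With an assumed biological coefficient of variation of 0.1 in edgeR's exact test, 0 members were called, against 2.05% of all genes; 14 members had an unadjusted p below 0.05 in the binomial test.

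Host genes did not show the same shift. The 34 tested hosts had a median log2 ratio of −0.01, 5 being called with replicate 2 above replicate 1 and 2 the other way. In 28 of 41 pairs the member's ratio was above that of its host, and the rank correlation of the ratios was 0.0616. Of 9 called members, only Scarna10 had a host called the same way (Ncapd2, log2 ratio 0.42, exact adjusted p = 0.0072), and most Scarna10 windows are shared with Ncapd2 or Gm28967.

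**Figure D4:**
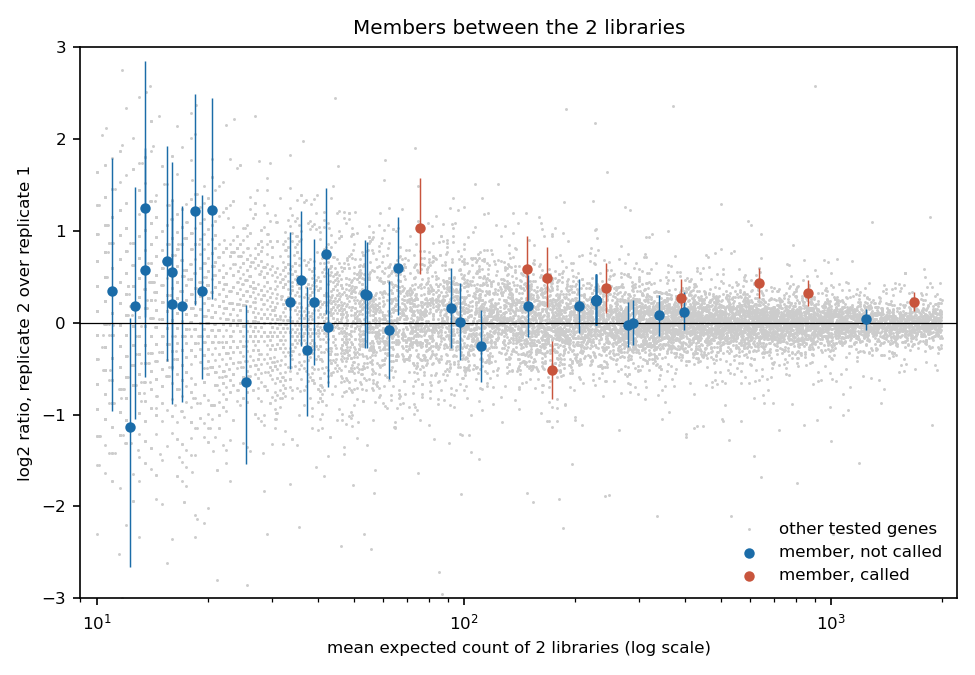
Log2 ratio of replicate 2 over replicate 1 against mean expected count on a log scale, with 95% counting intervals for the 47 members (9 called, 38 not) over grey points for other tested genes. The 49 other genes beyond a ratio of ±3, and those with a mean count above 2000, are not drawn. Of the members 39 lie above 0, the identical U3b copies among them.

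Genes for the proteins that act with these RNAs had modest RNA levels. Of 41 listed gene symbols 39 were measured, from 0.785 TPM (Shq1, an H/ACA assembly factor) to 49.2 TPM (Npm1, a nucleolar chaperone), and all 39 were tested. Tcof1, the only gene called higher in replicate 2, is a nucleolar factor of ribosomal RNA synthesis and had a log2 ratio of 0.19 (exact adjusted p = 0.034). Tent4b, the only gene called higher in replicate 1, is a poly(A) polymerase that acts in RNA 3′-end trimming and had −0.24 (exact adjusted p = 0.019). The median over the 39 was 0.03, against 0.01 over all genes.

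The core protein genes of both particle types had close median TPM. The box C/D core had a median of 12 ± 1.04 TPM: the methyltransferase gene Fbl had 7.01 and 6.61 TPM, Nop56 12.18 and 14.74, Nop58 10.34 and 10.72, and Snu13 20.92 and 21.03. The box H/ACA core had a median of 12.1 ± 3.27 TPM: the pseudouridine synthase gene Dkc1 had 9.73 and 17.61 TPM, Nop10 20.7 and 23.06, Nhp2 9.83 and 11.2, and Gar1 6.61 and 5.88. None of these 8 was called, although the TPM of Dkc1 differed between the animals more than its count ratio did (log2 ratio 0.15). Cajal body scaffold genes were low, with Coil at 1.9 and 1.86 TPM and Wrap53, which brings H/ACA RNAs to the Cajal body, at 1.8 and 1.61.

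A second deposited quantification, in the column layout of kallisto, saw far fewer of these RNAs. It gave the members 1470 and 1742 estimated counts in all, and 35 of 47, up to 238 bases long, were at 0 in both libraries. The 7 members with a mean of 10 or more there were the 7 of 265 bases or longer: Scarna2 (820 and 902), Gm22009 (269 and 288), Scarna10 (174 and 238), Gm23547 (92 and 108), Scarna6 (67 and 101), Gm25395 (26 and 73) and Scarna13 (19 and 27). The order of Scarna10 and Scarna2 was the opposite of that in the main table.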

How the data were processed

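Total RNA-seq tables of 2 libraries, 1 per animal, were used. Per the deposited README, they were made on mm10 with GENCODE M21, with genes quantified on transcriptome alignments and a further transcript table derived directly from the sequence file. Column names, per the file headers, are those of RSEM and, for that further table, kallisto. Neither the tool versions nor the strand setting is given in the sources used here, so overlapping and antisense genes may share reads. The deposited expected counts are estimated counts per gene, not normalized. The deposited TPM values are scaled by effective length and are fixed to 1 total over all entries, spike-ins included.

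Genes were taken by the class in the identifier field. Depth was 36792619 and 37752252 expected counts over 55536 genes, and entries that are neither gene nor spike-in held 0.0002% of counts. Rounded counts were compared between the libraries in genes with a mean of 10 or more by a conditional binomial test, exact and two-sided (scipy 1.17.1), with edgeR 4.0.16 (R 4.3.3) giving library sizes by its trimmed mean method. Log2 ratios used a prior of 1 count, and intervals at 95% cover counting error only. A fit with replicates per group was not possible with 1 group of 2 animals. Sequence sharing was counted as exact matches of 101-base windows, the length that the effective lengths imply, on GENCODE transcripts. Identity was taken from global alignments (Biopython 1.88). The test was checked on simulated data.

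The members, lists and tests were chosen with earlier results of these data known. Named by rule were the 20 members highest by count, the 10 by TPM, all scaRNA members, up to 4 per role, the 6 largest and 6 smallest ratios at a mean of 50 or more, the 3 genes on each side of the minimum, and the protein lists. Rnu3a, Snora21, Gm25776, Gm25835, Gm25291, Gm22362, Gm24336 and Gm23547 are not taken by it and were picked once their values were known. Alternatives used DESeq2 1.42.0 size factors, total counts or spike-ins as scaling, other minimums and priors, an assumed biological variation of 0.1, full length, the second quantification and each animal left out. Per the labels' protocols the kit is directional. Alleles of the parent strains were not separated, since the tables give 1 value per gene.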

Additional observations from a re-analysis of the deposited data

How the results depend on the processing

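The second quantification moved most values. It left 7 genes above the minimum in place of 47, gave 0.0385% in place of 0.327% of gene TPM, put 99.9% of member counts in the most abundant 10, and called 1 member higher in replicate 2 and 0 higher in replicate 1. It gave no ratio of D box to ACA members, since the ACA median was 0. The share of the library was 0.0252% by expected counts and 0.182% per full length, and the 10 members highest by TPM held 53.1% of member TPM. The log2 ratio of D box to ACA members was 1.27 per full length and 0.0599 at a mean of 20 or more counts. Members called higher in replicate 2 numbered 18 with total counts and 3 with spike-ins, and each scaling called 1 higher in replicate 1. Of all genes, 30.4% and 35.0% were called in both directions together. Their share in each direction was not computed for these scalings, so the 18 and 3 have no background of like direction. With an assumed biological variation of 0.1, 0 members were called higher in replicate 2 and 0 in the other direction. The median log2 ratio was 0.37 with total counts and 0.11 with spike-ins. Restricted to members with all windows unique, a restriction chosen after seeing the data, as was counting identical U3 copies once, 4 passed with replicate 2 above replicate 1 and 0 the other way. Of Snord and U3 members, 33.3% held both boxes and 100% the D box alone.

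Each animal alone gave 45 to 53 genes above the minimum, 0.307% to 0.348% of gene TPM, 67.5% to 67.9% in the most abundant 10, and a log2 ratio of D box to ACA members of 0.504 to 0.519. For the ratios of named members, 186 of 210 alternatives kept the call or its absence, 16 lost the call, 8 gained it and 0 reversed a called ratio. Some ratios near 0 that were not called changed sign, such as Scarna2 at 0.04 and at −0.11 with spike-ins. The other priors could not alter a call, since the prior is not part of the test. The 4 identical U3b copies enter this tally, and the D box median, singly. No paired analysis was possible because the samples form 1 group. Depth limits the 11 members with a mean below 20 counts, whose intervals span more than 2-fold in ratio. A count of 0 covers RNAs that were too short to be counted as well as those not detected.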
